A study of Mus musculus with 8 samples.

Results

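The histone genes described here were the 58 of 18990 listed genes whose symbol follows the naming of the clustered histone genes (Hist1 to Hist4, then a core histone or linker histone letter) or of their renamed forms. They comprised 7 linker histone H1 genes, 14 H2A genes, 15 H2B genes, 10 H3 genes and 12 H4 genes. By symbol, 48 belonged to the Hist1 cluster, 5 to Hist2, 3 to Hist3 and 1 to Hist4, and *H1f0* lay outside the clusters. The filter of a mean of at least 1 CPM (the read count scaled to library size) over all libraries was passed by 56 of the 58, and the others, *Hist1h1t* and *Hist1h2al*, were not tested.

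RNA was sequenced from wild-type BL6 mouse embryonic fibroblasts (MEFs) that were transduced at an MOI of 1 with lentiviruses carrying doxycycline-inducible *Oct4*, *Sox2*, *Klf4* and *c-Myc* (OSKM) and the rtTA transactivator. All cells then received a 40 nM pool of siRNAs against *Ncor1* (*siNcor1*), a nuclear corepressor subunit, or against *Oct4* (*siOct4*). From 24 h after transfection all cells were cultured with 2 µg/mL doxycycline, 3 µM chiron, 0.25 µM of the TGF-beta inhibitor Alk5i, 50 µg/mL ascorbic acid and LIF, and they were collected at day 3 or day 6 of reprogramming. Each of the 4 groups had 2 libraries, described as biological replicates, and no library with a non-targeting siRNA was analysed here. The endogenous fibroblast *Oct4* gene and the lentiviral cassette both carry the *Oct4* coding sequence, and the populations were transduced pools that may hold cells without the cassette.

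Histone mRNAs of the clusters are made mainly in S phase, when new DNA is packaged into nucleosomes. Core histones H2A, H2B, H3 and H4 form the nucleosome, and linker histone H1 binds the DNA between nucleosomes. Most of these mRNAs have no poly(A) tail: they end just after a short stem-loop that the stem-loop binding protein SLBP recognises. The U7 snRNP also takes part in forming this end. Transcripts without a tail are largely missed by poly(A) selection, whereas the present libraries were made from total RNA after depletion of ribosomal RNA.

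The stem-loops of 5 members are shown because mRNAs without a tail end after this structure, and because they cover the main variants seen here. The arms GGNNCT and AGNNCC on either side of a loop TNTN were searched on the sense strand of the GENCODE transcripts (GRCm38, which is mm10). The capitals mark the arms of the stem, and the lower-case letters are the loop and 5 bases on each side.

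Hist1h1c: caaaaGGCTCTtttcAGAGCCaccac
Hist1h2bb: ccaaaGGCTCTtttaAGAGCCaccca
Hist1h4h: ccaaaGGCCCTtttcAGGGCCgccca
Hist1h4i: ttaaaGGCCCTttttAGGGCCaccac
Hist3h2ba: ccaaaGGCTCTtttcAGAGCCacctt

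On GRCm38 the stem and loop lay at chr13:23739512-23739527 on the plus strand for *Hist1h1c*, at chr13:23747203-23747218 on the plus strand for *Hist1h2bb* and at chr13:23531458-23531473 on the plus strand for *Hist1h4h*. They lay at chr13:22040966-22040981 on the minus strand for *Hist1h4i* and at chr11:58949349-58949364 on the plus strand for *Hist3h2ba*. The letters were found in 40 of the 58 members (69%), and in 164 of 21951 annotated protein-coding genes (0.747%), of which 46 carry symbols that match the naming rule. They were found in 11 of 12 H4 genes, 8 of 10 H3 genes, 10 of 15 H2B genes, 7 of 14 H2A genes and 4 of 7 H1 genes. The form printed for *Hist1h1c* was the most frequent, in 21 of the 40. Some annotated transcripts stop before the loop, so a member without a match may still have one. Others run past it, by 840 bases in *Hist1h1c* and 330 in *Hist1h4i*, so a match does not show where the mRNAs ended here. *H1f0*, which encodes the replacement linker histone H1.0, had no match.

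The annotated Hist1 members, without the pseudogene *Hist1h2al*, spanned 2.05 Mb at chr13:21715763-23764406, and 55 of the 58 members were single-exon genes. Promoter windows from RefSeq (GRCm38.p6; 250 bases before to 50 after the start) were matched to 51 members. The windows of *Hist1h2bb*, among the most abundant H2B genes, and *Hist1h1c*, the member with most reads, are printed because both genes rose by day in both knockdowns while their motifs differ. Capitals mark matches to ATTTGCAT (the octamer bound by POU factors), CCAAT (bound by NF-Y) and TATAAA (the TATA box), each searched on both strands.

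Hist1h2bb: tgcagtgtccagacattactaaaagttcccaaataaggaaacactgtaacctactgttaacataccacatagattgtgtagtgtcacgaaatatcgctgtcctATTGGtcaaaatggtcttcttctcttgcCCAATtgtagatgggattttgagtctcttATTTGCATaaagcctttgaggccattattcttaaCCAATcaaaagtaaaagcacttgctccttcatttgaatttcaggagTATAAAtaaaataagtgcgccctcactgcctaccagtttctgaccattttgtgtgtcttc
Hist1h1c: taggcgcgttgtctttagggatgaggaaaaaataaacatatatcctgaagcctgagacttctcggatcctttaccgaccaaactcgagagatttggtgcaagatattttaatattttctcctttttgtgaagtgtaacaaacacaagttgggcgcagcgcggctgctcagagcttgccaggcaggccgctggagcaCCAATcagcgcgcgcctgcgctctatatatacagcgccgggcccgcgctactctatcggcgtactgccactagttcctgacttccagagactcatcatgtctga

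The first window is chr13:23746484-23746783 and the second chr13:23738557-23738856, both on the plus strand. CCAAT occurred in 42 of the 51 member windows (82.4%) against 37.9% of all 27025 windows, in every H2A, H2B and H3 window but in 3 of 11 H4 windows. The octamer occurred in 6 of 13 H2A and 4 of 12 H2B windows and in no H1, H3 or H4 window (1.75% of all windows). TATAAA occurred in 31 of 51 member windows (60.8%) against 14.2% of all. Windows of H2A and H2B genes that start close together overlap, as for *Hist1h2ai* and *Hist1h2bl*, so the same letters can count for both. A match is a description of these letters and not a mapped site.

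Between 7735742 and 16445192 reads per library fell on listed genes, with the fewest in *siOct4* day 3 replicate 2. The targeted genes did not all follow the labels. The paper describes the *Oct4* knockdown as transient and as not highly efficient at the earlier of the collected days. In its time course the mRNA was silenced early and soon recovered, which it attributes to high expression from the inducible cassette. No library analysed here was collected before day 3, so an earlier silencing was not tested. *Ncor1* was 135 and 146 CPM in the *siNcor1* day 3 libraries against 226 and 245 CPM in those labelled *siOct4*, while at day 6 the groups overlapped (153 and 156 against 160.4 and 140.3 CPM). *Pou5f1*, the gene for OCT4, was 197 and 205 CPM in *siNcor1* against 185 and 197 CPM in *siOct4* at day 3, and 187 and 159.7 against 700.1 and 501 CPM at day 6. Both *siOct4* libraries thus lay just below both *siNcor1* libraries for *Pou5f1* at day 3 (-0.08 log2 units, adjusted p = 0.941, not called), whereas at day 6 it was 1.78 log2 units higher in the libraries labelled *siOct4* (SE 0.156, limma adjusted p = 1.1e-04), so every direction given here is between libraries by their labels. Of the marker lists, the 6 fibroblast markers summed to 3467 to 15342 CPM, the 4 listed macrophage and blood markers to 4.35 to 10.00 CPM with *Adgre1* and *Tyrobp* at or near 0, and the 4 endothelial markers to 16.4 to 44.3 CPM, nearly all of it *Tek*, with *Pecam1* and *Cdh5* at or near 0.

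By group mean the histone sum was highest in the libraries labelled *siOct4* at day 6 and lower in both day 3 groups. It was 5567 and 3857 CPM in *siNcor1* day 3 (replicates 1 and 2) and 5888 and 3289 CPM in *siOct4* day 3. It was 9125 and 5416 CPM in *siNcor1* day 6 and 18776 and 12749 CPM in *siOct4* day 6, where 1.79% and 1.25% of reads on genes came from the 58 members. The day 3 groups overlapped, *siNcor1* day 6 replicate 2 lay below both day 3 libraries of replicate 1, and at day 6 both libraries labelled *siOct4* lay above both labelled *siNcor1*. In bulk RNA a larger share of cells in S phase and more histone mRNA per cell cannot be told apart.

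**Figure D1:**
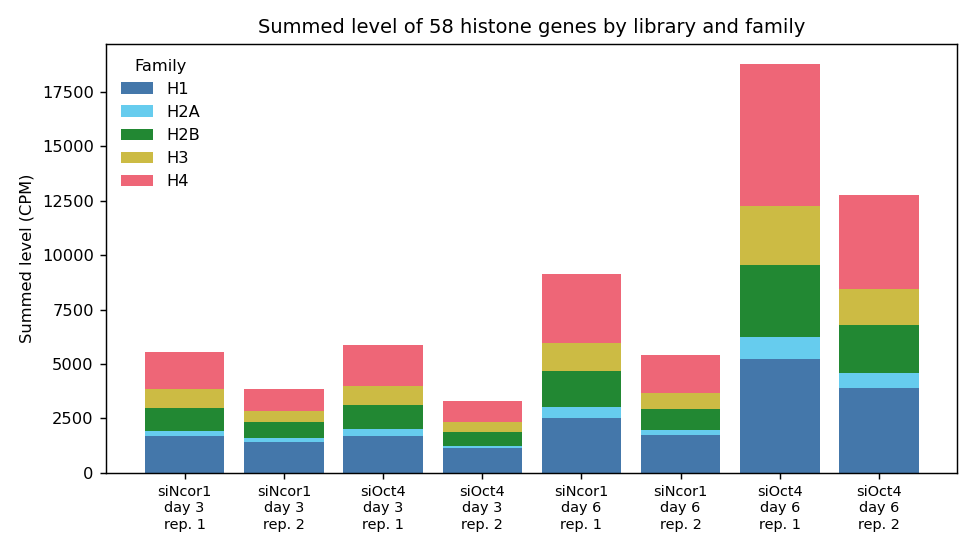
Summed level of the 58 histone genes in CPM for each of the 8 libraries, stacked by family (H1, H2A, H2B, H3, H4). The 2 *siOct4* day 6 bars reach 18776 and 12749 CPM, and in each group the replicate 1 bar is taller than the replicate 2 bar.

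Replicate 1 exceeded replicate 2 in every group, by ratios of the sums of 1.44, 1.79, 1.68 and 1.47 in *siNcor1* day 3, *siOct4* day 3, *siNcor1* day 6 and *siOct4* day 6. This held for most single members. Of the 56 tested members, 51 were higher in replicate 1 in all 4 groups (91.1%), against 9.81% of all 13866 tested genes, and the median difference between replicates was 0.57 to 0.93 log2 units. A value in one group therefore carries a replicate spread that the members share, and members are not independent of each other. The families kept similar proportions: H1 made up 27.7 to 36.4% of the summed CPM, H4 26.4 to 34.8%, H2B 17.6 to 19.6%, H3 12.8 to 15.0% and H2A 4.06 to 5.44%.

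*Hist1h1c* (chr13:23738808-23740367, plus strand), which encodes linker histone H1.2, held 10.6% of the mean summed CPM, and the 10 members with most reads held 53%. *Hist1h1c* was 412 and 347 CPM in *siNcor1* day 3, 413 and 267 CPM in *siOct4* day 3, 991 and 679 CPM in *siNcor1* day 6, and 2061 and 1692 CPM in *siOct4* day 6. Both day 6 groups lay above both day 3 groups, and at day 6 the groups did not overlap. Per kilobase of annotated exon, the most abundant members were the H4 genes *Hist1h4h* (838 CPM per kb, the mean of the 8 libraries) and *Hist1h4f* (638) and the H2B gene *Hist1h2bb* (648). This scale depends on how far a gene is annotated past the stem-loop. That was 840 of 1560 exon bases in *Hist1h1c* and 33 of 391 in *Hist1h4f*. The most abundant H1 genes were *Hist1h1c* at 549.9 and *Hist1h1a* at 406 CPM per kb, and the highest H3 and H2A genes were *Hist1h3e* at 247 and *Hist1h2ab* at 174. The counting rule for reads that match several near-identical copies was not given in the sources used here: a median of 53.5% of the 43-base stretches of a member, the read length, occurred in no other annotated gene, and 27 members had under 50%. Levels of single members with many shared stretches, such as *Hist1h2ai* with 9.69% unique, are therefore uncertain.

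**Figure D2:**
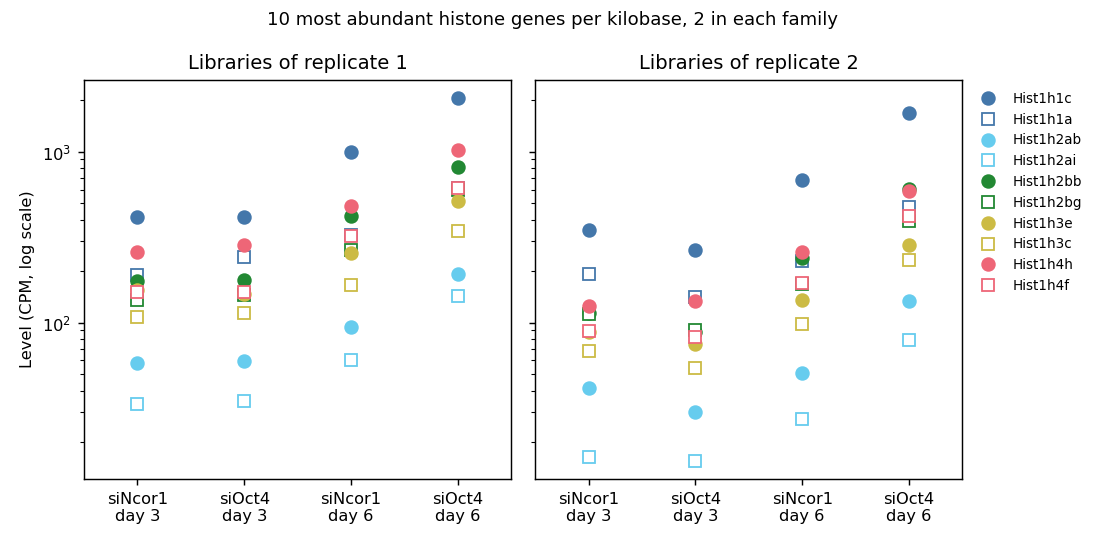
Level in CPM (log axis) of the 2 members of each family that were most abundant per kilobase, in the 4 groups, with replicate 1 libraries on the left and replicate 2 libraries on the right. All 10 genes are highest in *siOct4* day 6 in both panels, with *Hist1h1c* on top at 2061 and 1692 CPM.

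The 10 divergent pairs of an H2A and an H2B gene that start within 500 bases of each other gave a further view of levels. In 8 of the 10 pairs the H2B member was the more abundant per kilobase, with a median H2B to H2A ratio of 2.71. The H2A members of these pairs all overlap an annotated gene on the other strand, and none of the H2B members does. The part of these overlaps in the ratio was not tested. *Hist1h2ae* averaged 68.4 and its partner *Hist1h2bg* 386 CPM per kb, although their starts lie 175 bases apart. The reverse was seen for *Hist2h2ac* at 49.6 and *Hist2h2be* at 0.82 CPM per kb. Annotated exon length also differs within pairs, with 520 bases for *Hist2h2ac* and 2620 for *Hist2h2be*.

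The comparison of *siOct4* with *siNcor1* at day 3 asked whether histone mRNA levels differed early in reprogramming between the 2 knockdowns. None of the 56 tested members was called (limma on the deposited log2 values, Benjamini-Hochberg adjusted p under 0.05), where 0.375% of all tested genes were called higher and 0.692% lower. None reached an unadjusted p under 0.05 either, whereas 10.5% of all genes did, and a count-based voom fit called 0. The members' median difference was -0.06 log2 units, with 16 positive and 40 negative. *Hist1h1c* had group means of 379.6 and 340.1 CPM, and *Hist1h4h* was 260.3 and 125 CPM in *siNcor1* against 283 and 133 CPM in *siOct4*. Without *siNcor1* day 3 replicate 2 or *siOct4* day 3 replicate 1 the median was as low as -0.49 and without either of the other libraries as high as 0.38, so its sign was not set at this replicate spread.

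At day 6, 45 of the 56 members were called higher in the libraries labelled *siOct4* and none lower, where 12.1% of all tested genes were called higher and 18.6% lower. The median difference was 1.14 log2 units over the members and -0.03 over all tested genes. In 53 members both libraries labelled *siOct4* lay above both labelled *siNcor1* (29.9% of all genes). All 6 tested H1 genes were called, with 9 of 13 H2A, 12 of 15 H2B, 8 of 10 H3 and 10 of 12 H4 genes, and the family medians lay between 1.11 and 1.17.

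Among linker histones, *Hist1h1c* was 1.19 log2 units higher (SE 0.225, adjusted p = 0.00298). *Hist1h1a*, a linker histone gene with no stretch shared with another gene, was 325 and 229 CPM in *siNcor1* and 615 and 476 CPM in *siOct4*, which gave 0.99 (SE 0.232, adjusted p = 0.00849). The groups did not overlap for either gene. *H1f0* had the smallest difference of the called members, at 0.60 (SE 0.142, adjusted p = 0.00913), from 118 and 104 CPM to 186 and 151 CPM.

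Among core histones, the H2B gene *Hist1h2bb* was 420.1 and 239 CPM in *siNcor1* and 818 and 601 CPM in *siOct4*, a difference of 1.14 (SE 0.326, adjusted p = 0.021). The H2B gene *Hist1h2bg* was 2.29-fold higher (log2 SE 0.262, adjusted p = 0.00613), the H2A gene *Hist1h2ab* was 1.21 log2 units higher (SE 0.328, adjusted p = 0.0166) and the H4 gene *Hist1h4f* 1.11 higher (SE 0.342, adjusted p = 0.0291). The H3 gene *Hist1h3c* was called at 1.15 (adjusted p = 0.0253) and the H2A gene *Hist1h2ai* at 1.39 (adjusted p = 0.0366). A pair of abundant genes with differences of about this size were not called, with larger standard errors: *Hist1h4h* was 479 and 259.9 CPM against 1020.3 and 591 CPM (1.14, SE 0.412, adjusted p = 0.0548) and *Hist1h3e* 255 and 136 CPM against 515 and 284 CPM (1.04, SE 0.382, adjusted p = 0.0575).

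The largest called differences were those of *Hist1h2bp* (1.57, SE 0.337, adjusted p = 0.00553) and of a pair of low-abundance H2B members of the Hist3 cluster. *Hist3h2ba* was 2.73 and 1.85 CPM in *siNcor1* and 9.30 and 4.92 CPM in *siOct4* (1.54, SE 0.41, adjusted p = 0.0157), and the pseudogene *Hist3h2bb-ps* was 6.77 and 4.37 against 22.1 and 12.1 CPM (1.56, SE 0.418, adjusted p = 0.0158). The third member of that cluster, *Hist3h2a*, was not called (0.56, SE 0.318, adjusted p = 0.202). The values of the H2B pair rest on 22 to 88 reads a library for *Hist3h2ba* and 52 to 209 for *Hist3h2bb-ps*. Besides *H1f0*, the smallest called differences were 0.83 for *Hist1h2bn* and 0.94 for *Hist1h2be*. The member with the least difference was *Hist2h2be*, an H2B gene with 2620 bases of annotated exon and no stem-loop match, named after its values were seen: it was 2.48 and 2.10 CPM in *siNcor1* and 2.11 and 2.21 CPM in *siOct4* (-0.08, SE 0.281, adjusted p = 0.865).

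**Figure D3:**
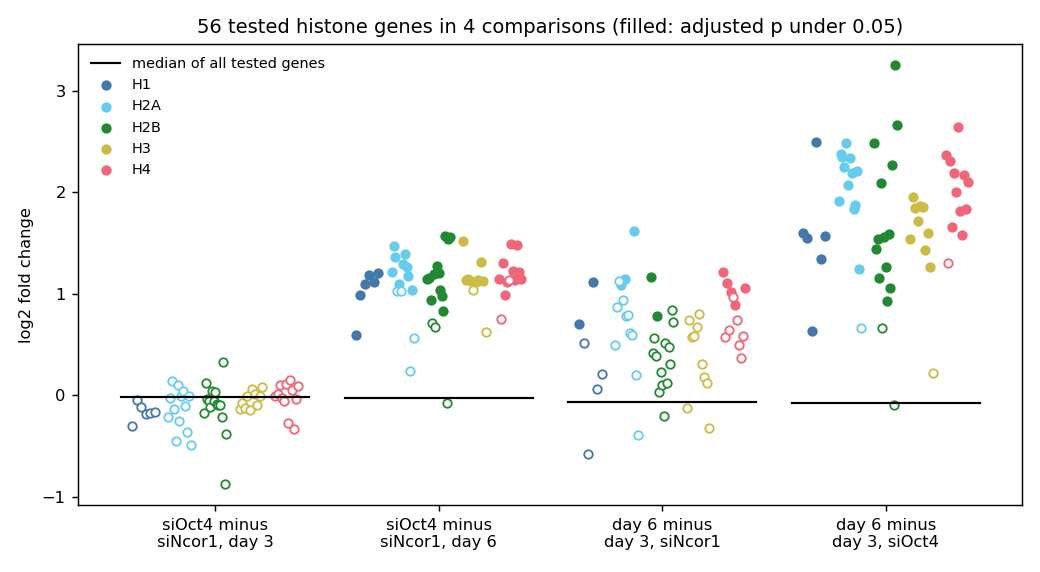
Log2 fold changes of the 56 tested histone genes in 4 comparisons, by family, with filled points at adjusted p under 0.05 and a black line at the median of all 13866 tested genes. No point is filled at day 3, 45 are filled in the day 6 comparison, 12 for day 6 against day 3 in *siNcor1* and 51 in *siOct4*.

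The number of calls at day 6 depended on single libraries. Without *siNcor1* day 6 replicate 2 only *Hist1h1c* was called, without *siOct4* day 6 replicate 1 there were 11 calls, and without the other libraries 50 or 51, while the median stayed between 0.72 and 1.55. When the variance was fitted with no trend over expression, 12 members were called.

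The day 6 difference is also given for subsets of the members that the naming rule did not use. Of the 10 tested members with at least 90% unique stretches 8 were called (median 1.04), and of the 26 with under 50% 21 were called (median 1.14). Of the 39 tested members with the stem-loop letters 30 were called (median 1.14), and of the 17 without them 15 (median 1.13). The 17 members annotated for at least 300 bases past the loop had a median of 1.12, and the 22 annotated for less had 1.15. The 46 tested Hist1 members had a median of 1.14 with 39 called, and the 10 outside that cluster a median of 0.83 with 6 called. No test was made between these subsets, and a member's annotated end was not compared with where its reads fell.

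The effect of time was compared within each knockdown, and these comparisons share libraries with those at day 3 and day 6. In *siNcor1*, 12 of 56 members rose from day 3 to day 6 and none fell, where 13.8% of all tested genes were called higher and 20.9% lower. The median change was 0.58 against -0.07 over all genes, and in 19 members both day 6 libraries lay above both day 3 libraries (31.4% of all genes). The calls were 5 of 12 H4, 3 of 13 H2A, 2 of 15 H2B, 2 of 6 H1 and 0 of 10 H3 genes, with medians of 0.81, 0.79, 0.41, 0.36 and 0.44, and no difference between families was tested.

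*Hist2h2ab*, an H2A gene of the Hist2 cluster, had the largest called change, from 1.92 and 0.986 CPM to 5.78 and 3.53 CPM (1.62, SE 0.36, adjusted p = 0.00511), on 17 to 70 reads. The H4 gene *Hist1h4a* rose from 162 and 112 CPM to 394 and 248 CPM (1.21, SE 0.3, adjusted p = 0.0089), and *Hist1h2bb* rose by 1.17 (SE 0.326, adjusted p = 0.0163). The smallest called rises were those of *H1f0* (0.70, adjusted p = 0.00302), *Hist1h2bg* (0.78, adjusted p = 0.037) and *Hist1h4i* (0.88, adjusted p = 0.0384).

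Of the linker histone genes in *siNcor1*, *H1f0* and *Hist1h1c* were called. *Hist1h1c* rose by 1.12 (SE 0.225, adjusted p = 0.00295), and *Hist1h1b*, the H1.5 gene, was 277 and 233 CPM at day 3 and 212 and 137 CPM at day 6 (-0.58, SE 0.247, adjusted p = 0.0903). *Hist1h1d* and *Hist1h1e* changed by 0.06 and 0.20 (adjusted p = 0.874 and 0.601). *Hist1h1b*, *Hist1h1d* and *Hist1h1e* are set beside *Hist1h1c* after their values were seen, and no difference between H1 genes was tested. The count in *siNcor1* fell to 2 (*Hist1h1c* and *H1f0*) without *siNcor1* day 3 replicate 2 and to 3, of which *Hist1h1b* was lower, without *siNcor1* day 6 replicate 1. It was 27 when only the libraries of *siNcor1* were fitted and 4 without the variance trend.

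In the libraries labelled *siOct4*, 51 of 56 members rose from day 3 to day 6 and none fell, where 22.2% of all tested genes were called higher and 30.5% lower. The median change was 1.84 against -0.08 over all genes. All 6 tested H1 genes, 12 of 13 H2A, 13 of 15 H2B, 9 of 10 H3 and 11 of 12 H4 genes were called, and the family medians were 2.19 for H2A, 2.05 for H4, 1.66 for H3, 1.56 for H1 and 1.54 for H2B. The 5 members not called were *Hist1h2bh*, *Hist1h4b*, *Hist2h2be*, *Hist2h3c2* and *Hist3h2a*, which are named as the whole remainder.

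*Hist3h2ba* had the largest change, from 0.881 and 0.380 CPM to 9.30 and 4.92 CPM (3.25, SE 0.41, adjusted p = 5.66e-05), from 13 and 3 reads at day 3. *Hist3h2bb-ps* followed at 2.67 (SE 0.418, adjusted p = 2.62e-04). *Hist1h4i*, an H4 gene of the Hist1 cluster, rose from 24.4 and 12.8 CPM to 130.4 and 94.7 CPM (2.64, SE 0.299, adjusted p = 2.68e-05).

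Of the abundant members, *Hist1h1c* rose by 2.49 (SE 0.225, adjusted p = 5.46e-06) and *Hist1h2bb*, from 177 and 88.6 CPM at day 3, by 2.48 (SE 0.326, adjusted p = 7.66e-05). *Hist1h4f* rose by 2.19 (adjusted p = 2.58e-04), *Hist1h2ai* by 2.19 (adjusted p = 0.00166), *Hist1h4h* by 2.00 (adjusted p = 0.00163) and *Hist1h3e* by 1.86 (adjusted p = 0.00157). For these genes both day 6 libraries lay above both day 3 libraries.

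The smallest called changes were those of *Hist1h1b* (0.63, SE 0.247, adjusted p = 0.0474), *Hist1h2bl* (0.92, adjusted p = 0.0186) and *Hist1h2bn* (1.05, adjusted p = 0.00619). *Hist1h1b* was 292 and 189 CPM at day 3 and 442 and 301 CPM at day 6, and its change was no longer called without *siOct4* day 3 replicate 2 (0.32) or *siOct4* day 6 replicate 1 (0.36), nor under 4 of 12 other alternatives (adjusted p up to 0.124). *Hist1h2bl* was not called without *siOct4* day 3 replicate 2 (0.51) or *siOct4* day 6 replicate 1 (0.67), and *Hist1h2bn* not without *siOct4* day 3 replicate 2 (0.67). Leaving out 1 library at a time gave 42 to 53 calls, and the median was 1.32 without *siOct4* day 3 replicate 2.

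The change of the difference between the knockdowns from day 3 to day 6 was tested directly. It was called for 14 of 56 members, all toward higher values in *siOct4* at day 6, where 7.77% of all tested genes were called in that direction and 12.9% in the other. The median was 1.17 against 0.01 over all genes, and 40 members had an unadjusted p under 0.05 (35.5% of all genes). All 6 tested H1 genes were among the 14, with 4 of 15 H2B, 2 of 12 H4, 1 of 13 H2A and 1 of 10 H3 genes. *Hist3h2ba* (2.41, SE 0.58, adjusted p = 0.0143), *Hist3h2bb-ps* (1.94, SE 0.591, adjusted p = 0.0376) and *Hist1h4n* (1.80, SE 0.591, adjusted p = 0.0494) had the largest values. *H1f0* (0.90, SE 0.2, adjusted p = 0.0101), *Hist1h1a* (1.04, adjusted p = 0.0437) and *Hist1h1b* (1.21, adjusted p = 0.0307) had the smallest called ones. The count was 0 without *siOct4* day 3 replicate 2 or *siNcor1* day 6 replicate 2. It was 2 and 4 without *siNcor1* day 3 replicate 1 and 2, 7 without *siOct4* day 6 replicate 1, and 28, 36 and 40 without *siNcor1* day 6 replicate 1, *siOct4* day 3 replicate 1 and *siOct4* day 6 replicate 2.

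Genes of other steps in the histone pathway were set beside the members. Of 18 genes for histone mRNA 3′ end processing and histone gene transcription, 3 were called higher (*Pou2f1*, *Lsm11*, *Cstf2*) and 1 lower (*Zcchc6*) in *siOct4* at day 6, where 12.1% of all tested genes were higher and 18.6% lower. *Pou2f1* encodes the octamer-binding factor OCT1 and was 0.51 higher (adjusted p = 0.0181), *Lsm11*, a U7 snRNP subunit, was 0.46 higher (adjusted p = 0.0451) and *Zcchc6*, a uridylyl transferase, was lower (-0.39, adjusted p = 0.0377). *Slbp*, the stem-loop binding protein, was 26.4 and 23.6 CPM in *siNcor1* and 25.7 and 31.3 CPM in *siOct4* (0.18, adjusted p = 0.421). From day 3 to day 6 in *siNcor1* 9 of the 18 were called lower and 0 higher, *Slbp* among them (-0.55, adjusted p = 0.0207), where 20.9% of all genes were lower, and in *siOct4* 5 were lower and 1 higher, where 30.5% and 22.2% of all genes were.

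Of 17 S phase and DNA synthesis genes, 13 were higher and none lower in *siOct4* at day 6 (12.1% and 18.6% of all tested genes), with a list median of 0.65. *Ung*, a uracil DNA glycosylase, was 18.1 and 13.7 CPM against 41.4 and 34.9 CPM (1.26, adjusted p = 0.00102) and *Pcna*, the sliding clamp of DNA polymerase, was 139.9 and 133 against 217 and 245 CPM (0.76, adjusted p = 0.00301). *Ccne2* (0.91, adjusted p = 0.0136) and *Gins1* (0.78, adjusted p = 0.0138) were also higher. By day in *siNcor1* 4 S phase genes fell and none rose, led by *Rrm2* (-1.13, adjusted p = 7.33e-05) and *Rrm1* (-0.94), the subunits of ribonucleotide reductase. Of all tested genes, 20.9% were called lower and 13.8% higher there. By day in *siOct4* 9 rose and 2, again *Rrm1* and *Rrm2*, fell, with a list median of 0.43. Of all tested genes, 22.2% were called higher and 30.5% lower there. The difference between this list and the histone genes was not tested. In summed CPM this list was 1.44 times as high in *siOct4* as in *siNcor1* at day 6, the histone genes 2.17 times.

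Of 10 genes listed as replication-independent histone variants, 2 were higher in *siOct4* at day 6 and none was lower. These were *Cenpa*, the centromeric H3 (0.53, adjusted p = 0.0139), and *H2afx*, the H2A.X gene (0.89, adjusted p = 0.0295). Of all tested genes, 12.1% were called higher and 18.6% lower in that comparison. Whether each listed gene, *H2afx* included, is expressed independently of replication was not tested. *H2afz*, the H2A.Z gene, rose by day in both knockdowns, by 1.26 in *siNcor1* and 1.90 in *siOct4* (adjusted p = 5.15e-04 and 9.64e-06), as did *H3f3a*, an H3.3 gene (0.80 and 1.43). All 6 fibroblast markers were lower in *siOct4* at day 6, with a list median of -0.83 and sums of 6145 and 6418 CPM in *siNcor1* against 3534 and 3467 CPM in *siOct4*, and no tested macrophage, blood or endothelial marker was called there.

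The sum of 8 other RNAs listed as without a poly(A) tail, most of it *Rn7sk*, was higher in replicate 1 and at day 6, as the histone sum was. Whether each of them had a tail here was not tested. It was 10622 and 5984 CPM in *siNcor1* day 3, 9486 and 6591 CPM in *siOct4* day 3, 22772 and 16300 CPM in *siNcor1* day 6, and 26126 and 22367 CPM in *siOct4* day 6. Replicate 1 exceeded replicate 2 in every group (ratios 1.78, 1.44, 1.40 and 1.17), and day 6 exceeded day 3 (2.35 and 3.02 times). By day 4 of the 8 were called higher in each knockdown (*Rn7sk*, *Rnu12*, *Rpph1* and *Terc*) and none lower. Of all tested genes, 13.8% were higher and 20.9% lower by day in *siNcor1*, and 22.2% and 30.5% in *siOct4*. Of the 8, 5 were higher in replicate 1 in all 4 groups, which *Malat1*, *Neat1* and *Rnu12* were not. *Terc*, the telomerase RNA, rose by 2.62 in *siNcor1* and 4.23 in *siOct4* (adjusted p = 0.00131 and 1.84e-05), and *Rn7sk* by 1.65 and 2.09. Between the knockdowns at day 6 none of the 8 was called higher and *Malat1* was lower (-0.86, adjusted p = 0.00691), against 12.1% and 18.6% of all tested genes. Of the variants listed as replication-independent, 7 of 10 were higher in replicate 1 in all 4 groups. None of the 17 S phase genes was, with ratios of the list's sums, replicate 1 to replicate 2, of 0.859, 1.12, 1.07 and 0.863. The part of the RNA class in the histone result was not tested.

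**Figure D4:**
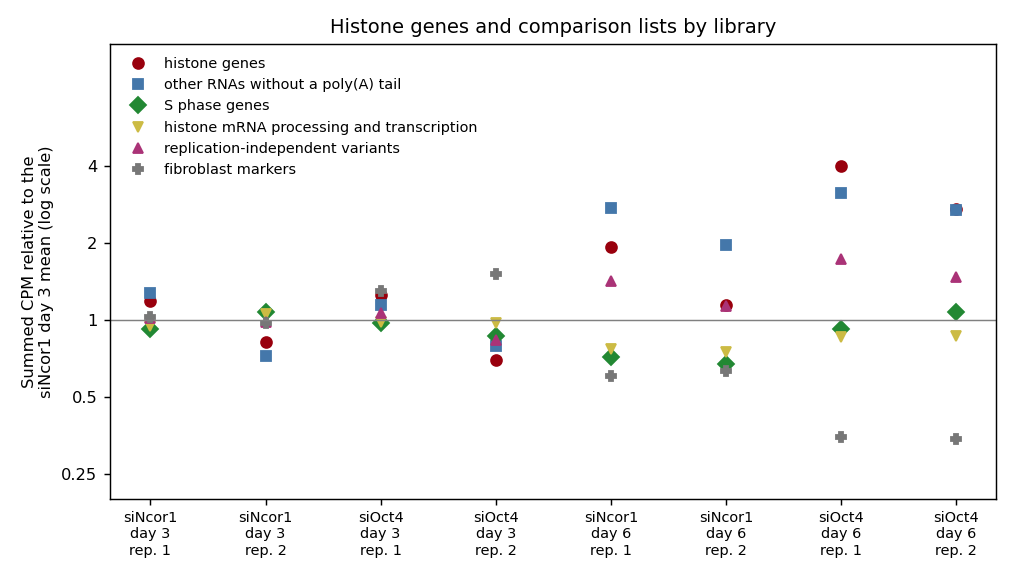
Summed CPM of the histone genes and of 5 comparison lists in each library, divided by the mean of the *siNcor1* day 3 libraries (log axis). In *siNcor1* day 6 the RNAs listed as without a poly(A) tail lie above the histone genes and the S phase genes below 1. In *siOct4* day 6 the histone genes reach 3.98 and 2.71.

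Transcript length also moved with the result. The tested members had a median longest annotated transcript of 593 bases, and 33 of 56 were under 700 bases. Among other protein-coding genes, the 109 with a longest transcript under 700 bases had median differences of 0.36 between the knockdowns at day 6, 0.69 by day in *siNcor1* and 1.23 by day in *siOct4*. The 7637 genes of 3000 bases or more had -0.13, -0.20 and -0.31. The members' medians of 1.14 and 1.84 lay above those of the short genes, whereas the median of 0.58 by day in *siNcor1* did not. Replicate 1 exceeded replicate 2 by medians of 0.04 to 0.39 log2 units in the short genes. The part of transcript length in the histone result was not tested.

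**Figure D5:**
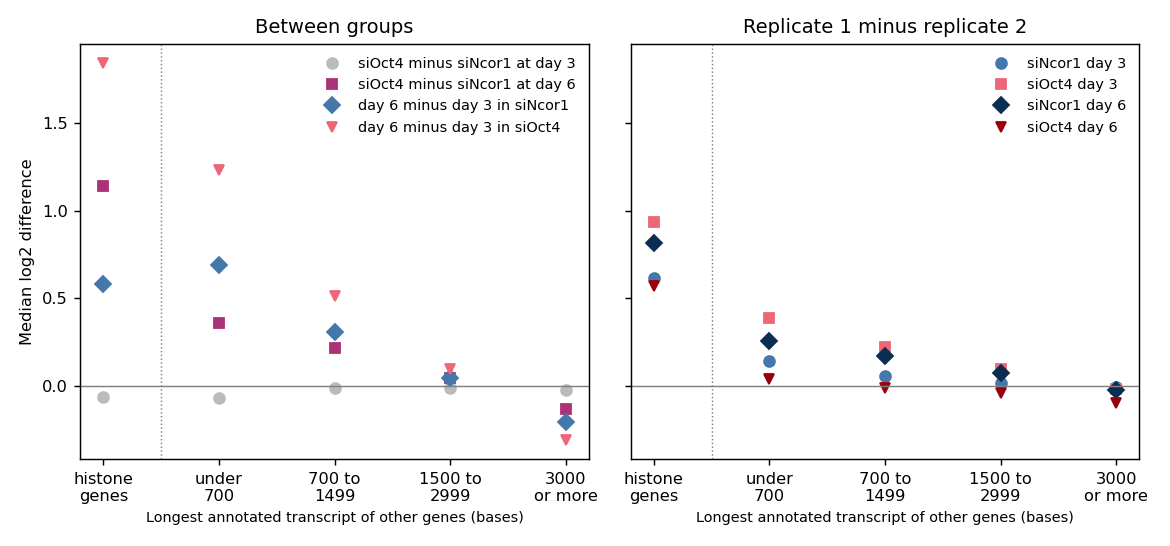
Median log2 differences between groups (left) and between replicates 1 and 2 (right) for the tested histone genes and for other protein-coding genes in 4 bins of longest annotated transcript. In *siOct4* the change by day falls from 1.84 in histone genes and 1.23 in genes under 700 bases to -0.31 in genes of 3000 bases or more.

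*Hist1h1t*, the testis linker histone gene, stayed under the filter at 0.06 to 1.16 CPM, from 1 to 12 reads a library. The pseudogene *Hist1h2al* had 1 to 7 reads a library. Of the 71 annotated genes whose symbols match the naming rule, 13 were not analysed here.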

How the data were processed

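Starting from 200 ng, total RNA was depleted of ribosomal RNA, made into libraries and sequenced in 43 bp reads. The authors aligned reads with STAR 2.5.2b (mm10, GRCm38) and deposited log2 CPM values (read counts scaled to library size) from edgeR 3.20.9, per the labels and the values. On each library's scale every deposited log2 value gave a whole number of reads (100% within 0.1 read) after a constant of 0.136 CPM was removed, and CPM are given without that constant. Intervals around the CPM of a single library would cover counting error only and are not given.

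All 8 libraries were fitted together by group with limma 3.58.1 (R 4.3.3) over the 13866 genes averaging 1 CPM or more. The prior variance followed average expression, and tests were two-sided, with Benjamini-Hochberg adjustment over all genes tested at 0.05. Fold changes are on this log2 scale, so those of genes with few reads are understated. With 2 libraries a group, p-values measure the spread between these libraries. Replicates differed by more than sampling noise (chi-square per degree of freedom 9.48 to 21.3). Gm26917 took 15.5 to 29.1% of reads. The fit was tested on simulated data in which genes varied independently. Those data held no replicate difference shared by many genes, unlike the histone genes here, so they do not bear on the histone calls.

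The members, gene lists and tests were chosen with earlier results of these data known. Named genes were the targeted genes, the 2 members of each family most abundant per kilobase, the 3 called members with the highest and lowest changes in each comparison, *H1f0* and *Hist1h1t*, and up to 4 called genes of each list. Alternatives were other scalings, filters, a pseudocount of 1 CPM, voom on the recovered reads, no variance trend, the replicate number as a block, only the groups compared, and leaving out each library. Symbols were matched to GENCODE M21, stem-loops to its transcripts and promoters to RefSeq windows. The submitters' rule for reads with several matches is not given in the sources used here.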

Additional observations from a re-analysis of the deposited data

Results flagged for a closer look

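The difference between the knockdowns itself changed between day 3 and day 6, by the interaction term of the limma fit, for 14 of the 56 tested histone genes. Among those named, the change toward higher values in the libraries labelled *siOct4* at day 6 was 2.41 log2 units for *Hist3h2ba*, 1.94 for *Hist3h2bb-ps*, 1.80 for *Hist1h4n*, 1.21 for *Hist1h1b*, 1.04 for *Hist1h1a* and 0.90 for *H1f0* (2 libraries a group). *Hist3h2ba* rests on as few as 3 reads in *siOct4* day 3 replicate 2, the library with the fewest reads, which also had the lowest histone sum. With 1 library left out the change ran from 1.93 to 2.90 for *Hist3h2ba*, 1.29 to 2.59 for *Hist3h2bb-ps* and 1.06 to 2.55 for *Hist1h4n*. It ran from 0.90 to 1.53 for *Hist1h1b*, 0.65 to 1.42 for *Hist1h1a* and 0.745 to 1.05 for *H1f0*. These ranges give the size of the change and not whether it was still called. Among the other alternatives, 3 of 11 did not call *Hist1h4n*, which had 14.2% unique stretches, and 2 of 10 did not call *Hist3h2bb-ps*. *Hist1h1a* and *Hist1h1b* each lost the call in 1 of 11. *Hist3h2ba* kept it in all 10 and *H1f0* in all 11.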

How the results depend on the processing

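Over the scalings, filters, tests and left-out libraries, the median change of the histone genes kept its direction in every comparison but that at day 3, where it ran from -0.49 to 0.38 and 0 members were called under all of them. At day 6 the count of 45 was 12 without the variance trend and ranged from 1 to 51 with 1 library left out. By day in *siNcor1* the count of 12 was 4 without the trend, 8 among genes of at least 10 CPM, 27 with only the groups compared, and 2 to 17 with 1 library left out. By day in *siOct4* the count of 51 ranged from 42 to 53, and the median from 1.32 to 2.31, with 1 library left out. For the change of the difference the count of 14 was 3 without the trend and 0 to 40 with 1 library left out. Leaving the gene Gm26917 out of the library totals moved the median of all genes by 0.134 by day in *siOct4*, and the members then stood 1.92 above it. Of 731 values of single named genes under these alternatives, 628 kept their direction and side of the threshold, 91 were no longer past it, 12 came to pass it and 0 reversed.

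Over all 13866 tested genes, samples with the same replicate number did not clearly deviate together (correlations of -0.0395 to 0.281 over 6 pairs of groups). Of the histone genes, however, 51 of 56 were higher in replicate 1 in all 4 groups. The labels do not say what the replicate numbers share, so the pairing of the numbers is not established. In the fit that held replicate number as a block, the counts were 0 at day 3, 52 at day 6, 38 by day in *siNcor1*, 53 by day in *siOct4* and 51 for the change of the difference.

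With 2 libraries a group and a replicate difference shared by most members, single counts of calls were set by single libraries. The cause of these changes was not tested.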
